A study of Homo sapiens with 6 samples.

Results

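Tetrahydrobiopterin is made from GTP and recycled after use by a short series of enzymes, and 7 gene symbols of that pathway were looked up in the deposited gene table: GCH1, GCHFR, PTS, SPR, QDPR, PCBD1 and PCBD2. Of these, 6 had a row among the 17187 genes of the table. GCHFR had none and entered only the promoter search below. All 6 were among the 15546 genes kept by a filter on low values. The cells were HT-1080, an established human fibrosarcoma line from ATCC, wild type by label and grown in EMEM. One group of 3 libraries was given PBS as control, and the other group of 3 was given recombinant IFNg (interferon gamma) for 8 h at a dose of 10 ng/ml. Total RNA depleted of ribosomal RNA was sequenced from a stranded library kit as paired ends of 50 cycles. The series asks how CD8+ T cells, a source of IFNg, bear on ferroptosis of tumour cells.

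GCH1 (GTP cyclohydrolase 1) carries out the first and rate-limiting step, PTS (6-pyruvoyltetrahydropterin synthase) the second and SPR (sepiapterin reductase) the last. The product is the cofactor of the aromatic amino acid hydroxylases, of the nitric oxide synthases and of alkylglycerol monooxygenase, and after use by the hydroxylases it is regenerated by the dehydratases PCBD1 and PCBD2 and by the reductase QDPR. GCHFR encodes the protein through which GCH1 is inhibited by the end product. Tetrahydrobiopterin is also a radical-trapping antioxidant, and GCH1 is known as a suppressor of ferroptosis. Cytokine induction of GCH1 by IFNg is textbook biology for many human cell types.

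Values are normalised read counts, whole reads divided by 1 size factor per library and not by gene length. Libraries held 59556948 to 83501954 reads on genes, and 1 read was worth 0.835 to 1.16 units. The libraries numbered 3 deviated together from their group means more than other same-numbered pairs did (r across 14215 genes of 0.156, against 0.0687 and 0.0359 for numbers 1 and 2), and results that change without both are given both ways. The mesenchymal marker VIM lay between 314888 and 406141 in all 6 libraries. Of 5 mesenchymal markers, limma, edgeR and DESeq2 called 0 in either direction (1, SPARC, at an unadjusted p under 0.05). Over all kept genes limma called 3.27% higher and 1.05% lower, and 15.3% had an unadjusted p under 0.05. The summed level of these markers was 565389 to 582231 in control and 526833 to 548435 in IFNg. The log2 difference was -0.24 for SPARC (limma adjusted p = 0.296), -0.24 for FN1 (0.691), -0.90 for S100A4 (0.469, without overlap), -0.07 for CDH2 and -0.04 for VIM. Without both libraries numbered 3, SPARC and FN1 passed as lower (-0.26 and -0.24, limma adjusted p = 0.00658 and 0.0147). Both also passed as lower with the replicate number added to the fit (limma adjusted p = 0.0255 and 0.0334). The part of these markers in the results was not tested. Leukocyte and endothelial markers were low, with PTPRC at 0 to 44.6, CD3E at 0 to 25.5, LYZ at 97.6 to 157, PECAM1 at 13.9 to 39.02 and CDH5 at 0 in 5 libraries. The mesenchymal marker S100A4 was low too, at 19.5 to 83.5, below LYZ. The summed leukocyte markers were 125 to 157 in control and 123 to 176 in IFNg. Whether replicates were separate cultures is not stated, so p-values measure the spread between these libraries, which may be technical.

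GCH1 rose about 4-fold after IFNg, and the other 5 measured genes of the pathway did not pass the test. By limma with Benjamini-Hochberg adjustment over all kept genes, 1 of 6 members was higher and 0 were lower, where 3.27% of all kept genes were called higher and 1.05% lower. At an unadjusted p under 0.05 there were 3 of 6 members, GCH1, SPR and PCBD1, and 2373 of all 15546 kept genes (15.3%). edgeR and DESeq2 on recovered reads also called 1 higher and 0 lower. The median log2 difference was 0.05 over the 6 members and -0.01 over all 15546 genes. Groups did not overlap for GCH1 and SPR, both higher, and for PCBD1, which was lower. Among all kept genes 10.7% did not overlap and were higher, and 9.28% did not overlap and were lower.

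GCH1 read 206, 309.8 and 336 in control 1, 2 and 3 and 925, 1294 and 1102 in IFNg 1, 2 and 3. Every IFNg library was above every control library, and the lowest control was number 1. The group means were 284 ± 68.9 and 1107 ± 184 (SD, n = 3 each), a ratio of 3.90. The log2 difference was 1.98 ± 0.23 (SE), with a 95% interval of 1.47 to 2.49 and a limma adjusted p of 0.000228. By size GCH1 was number 158 of the 509 genes called higher. These levels rested on 908 reads in control and 3199 in IFNg. Counting error alone would give an SD of 16.4 in control and 34.02 in IFNg, both below the spread between the libraries of a group. Without each library in turn the log2 difference stayed between 1.76 (without control 1) and 2.11 (without control 3), with limma adjusted p up to 0.00174.

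**Figure D1:**
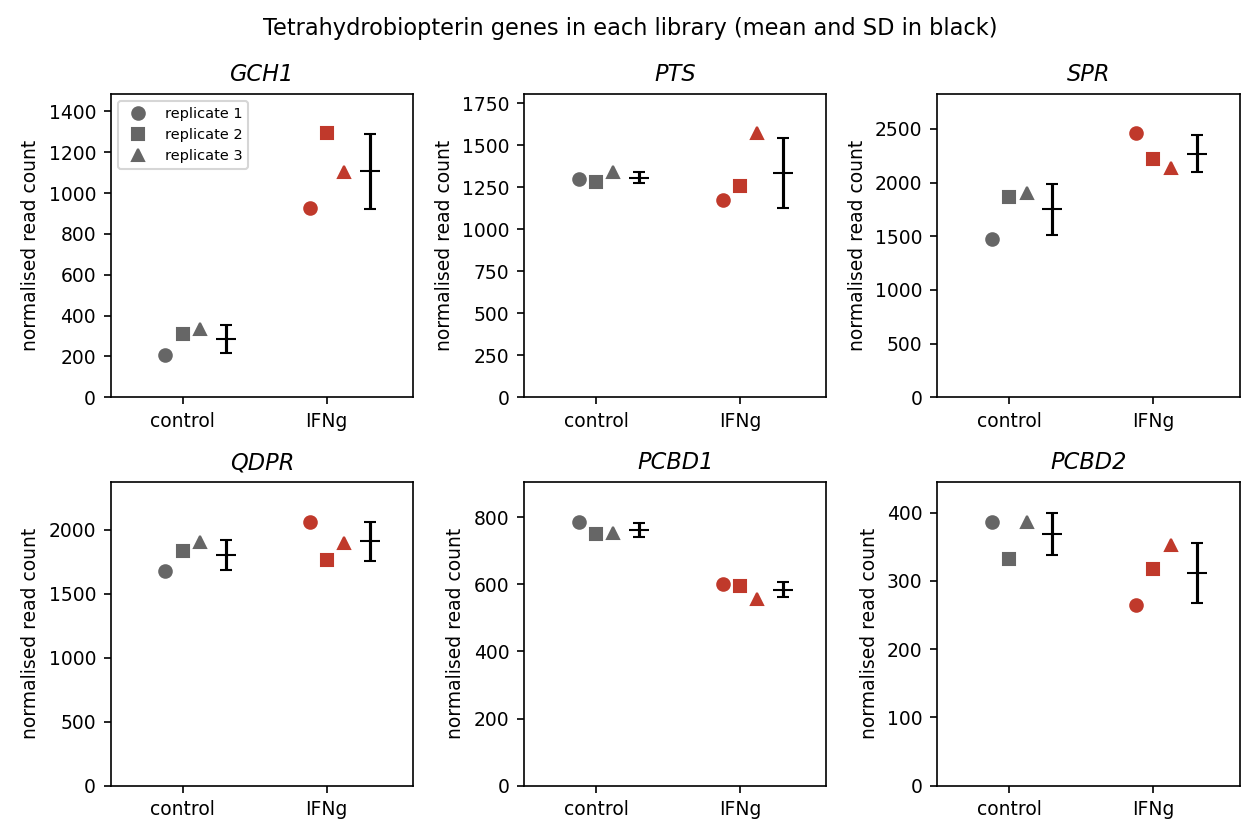
Normalised read count (y axis, linear from 0) of 6 pathway genes in each control (grey) and IFNg (red) library, with the group mean and SD in black and the marker shape giving the replicate number. GCH1 lies between 206 and 336 in control and between 925 and 1294 in IFNg, whereas the groups of PTS, QDPR and PCBD2 overlap.

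PTS, the enzyme after GCH1, had overlapping groups with means of 1306 ± 32.6 and 1335 ± 209 (SD, n = 3 each). It read 1298, 1279 and 1342 in control and 1176, 1255 and 1572 in IFNg. Control values were close together, while IFNg spanned a range that enclosed them, with IFNg 3 the highest and IFNg 1 the lowest of the 6. The log2 difference was 0.02 ± 0.15 (limma adjusted p = 0.973), and its 95% interval of -0.30 to 0.34 corresponds to 0.81 to 1.27 times the control level. The sign was not stable. The difference was -0.10 without IFNg 3, -0.08 without both libraries numbered 3, and -0.014 with quantile normalization of all 6.

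SPR, which completes the synthesis, read 1473, 1868 and 1905 in control and 2460.3, 2215 and 2131 in IFNg. All 3 IFNg libraries were above all 3 controls, and control 1 was again the lowest. The means were 1749 ± 239 and 2269 ± 171, a ratio of 1.30. The log2 difference of 0.38 ± 0.14 did not pass over all genes (limma adjusted p = 0.182), and its 95% interval was 0.08 to 0.68. Without both libraries numbered 3 it was 0.49 and passed (limma adjusted p = 0.0215), and without control 1 it was 0.26 (0.432). The intervals of SPR and GCH1 do not overlap.

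The stretches before the starts of SPR and PTS are shown because these 2 neighbours in the pathway differ in whether their groups overlapped. RefSeq promoter sequences (GRCh38.p14) matched 6 of the 7 symbols, all except GCH1. Each was searched over the 250 bases before its RefSeq start, on both strands, for the IFNg-activated site GAS (TTCNNNGAA), the longer core of the interferon-stimulated response element (ISRE, searched first), the shorter core bound by interferon regulatory factors (IRF core, AANNGAAA, added after the ISRE result was seen), the CCAAT box (CCAAT), the E-box (CACGTG) and the GC box (GGGCGG). Printed bases stop where the first GENCODE v29 transcript starts, and capitals mark matches to any of these motifs.
SPR, chr2:72887158-72887359, plus strand: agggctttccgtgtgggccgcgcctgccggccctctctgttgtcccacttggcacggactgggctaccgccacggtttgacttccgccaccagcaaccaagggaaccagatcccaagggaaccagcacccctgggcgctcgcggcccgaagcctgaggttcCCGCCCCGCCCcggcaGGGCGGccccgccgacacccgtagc
PTS, chr11:112226178-112226364, plus strand: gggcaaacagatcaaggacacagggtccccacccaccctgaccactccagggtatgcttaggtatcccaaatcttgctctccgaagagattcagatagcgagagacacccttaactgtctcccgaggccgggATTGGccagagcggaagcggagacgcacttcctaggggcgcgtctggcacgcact
The SPR window held 4 GC boxes, starting 89, 84, 73 and 44 bases before the RefSeq start, of which the first 2 overlap by their ends and the last lies beyond the printed bases. PTS held 1 CCAAT box on the reverse strand, 118 bases before its start, and no GC box. GAS, the ISRE core and the IRF core had matches in 0 of the 6 windows, against 6.78%, 3.07% and 20.6% of 27305 promoters, and the E-box in 0 of 6 against 6.49%. The GC box was found in 5 of 6 (42.3% of all promoters) and the CCAAT box in 2 of 6 (33.04%), in PTS and GCHFR. Matches are letters in 1 short window, and no value here bears on binding. The 6 windows were 65.2% (PTS) to 79.6% (QDPR) G or C, against a median of 58.0% over all promoters.

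QDPR, the reductase that regenerates the cofactor, read 1676, 1837 and 1903 in control and 2064, 1766 and 1896 in IFNg. The groups overlapped, with the highest and the second lowest of the 6 values both in IFNg. The log2 difference was 0.08 ± 0.12 (limma adjusted p = 0.841; 95% interval -0.19 to 0.35).

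PCBD1, the dehydratase that acts before QDPR, read 786, 748 and 752 in control and 600.2, 593 and 557 in IFNg, so that the groups were separated by more than the range within either. The means were 762 ± 20.8 and 583 ± 23.06, and the IFNg mean was 76.5% of the control mean. The SDs were below those that counting error alone would give (27.1 and 24.6). The log2 difference of -0.39 ± 0.17 did not pass (limma adjusted p = 0.291), with a 95% interval of -0.75 to -0.02. limma's SE here draws on the spread of other genes at this level. The adjusted p was 0.128 when limma ran without the variance trend, 0.242 with edgeR and 0.227 with DESeq2 on recovered reads.

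PCBD2, the paralogue of PCBD1, read 387, 332 and 386 in control and 265, 317 and 352 in IFNg. The groups overlapped through control 2 and IFNg 3. The log2 difference was -0.25 ± 0.23 (limma adjusted p = 0.691; 95% interval -0.75 to 0.26). An exon of PCBD2 in GENCODE v29 overlaps the span of CATSPER3 on the same strand. Whether it meets an exon of CATSPER3 was not looked up, so it is not known whether reads could be shared.

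**Figure D2:**
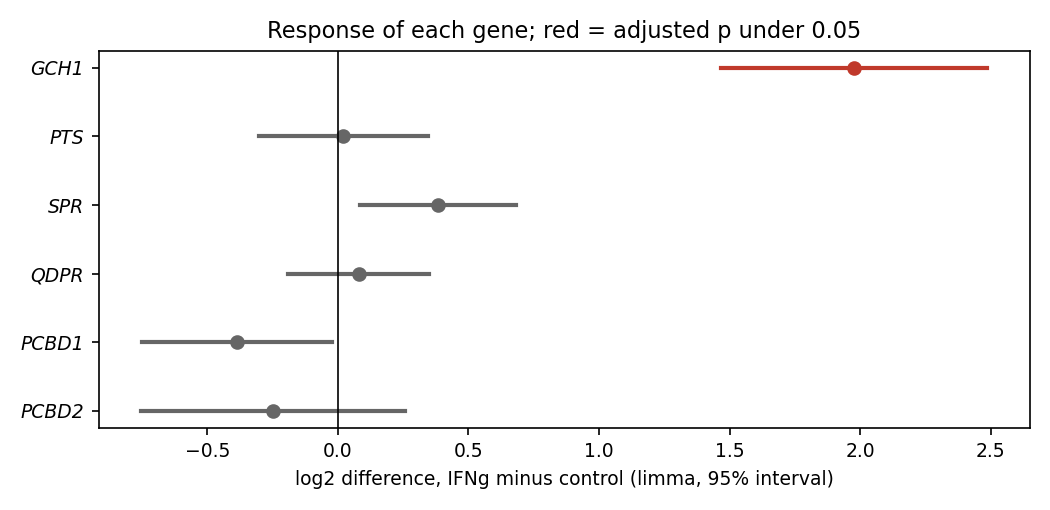
Log2 difference between IFNg and control (x axis) for the 6 measured genes, as the limma estimate (point) with its 95% interval (line), red where the adjusted p was under 0.05. GCH1 at 1.98 stands alone in red, the intervals of SPR (0.08 to 0.68) and PCBD1 (-0.75 to -0.02) do not reach 0, and those of PTS, QDPR and PCBD2 span it.

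The unequal response changed the proportions of the pathway's transcripts within each library. The ratio of GCH1 to PTS reads was 0.158, 0.242 and 0.2502 in control and 0.787, 1.03 and 0.701 in IFNg. Log2 GCH1 minus the mean log2 of the other 5 members was -2.27, -1.71 and -1.67 in control and -0.10, 0.39 and 0.08 in IFNg. The groups did not overlap in either measure, and the second differed by 2.01 between group means. No test is given for it, since the members were chosen with these results known.

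To compare levels between genes, normalised reads were divided by the length of the longest GENCODE v29 principal transcript. In control the order was PTS (1397 ± 34.9 normalised reads per kb, n = 3), SPR (1182 ± 162), QDPR (1096 ± 70.7), PCBD1 (758 ± 20.7), GCH1 (96.4 ± 23.4) and PCBD2 (65.6 ± 5.57). The values of SPR and QDPR overlapped between libraries, as did no other neighbours in that order: GCH1 ran from 69.9 to 114 per kb and PCBD2 from 59.1 to 68.8. In IFNg SPR (1533 ± 115) and PTS (1427 ± 224) overlapped, and QDPR (1158 ± 90.6) reached 1252 where PTS began at 1258. PCBD1 followed at 580.0 ± 22.9, GCH1 at 376 ± 62.6 and PCBD2 at 55.4 ± 7.82. GCH1 therefore held the fifth place of 6 in both groups per length. The order was the same with merged exon lengths, although other neighbours then overlapped in control. PTS (1252 to 1315) and SPR (995 to 1287) did, as did QDPR (754 to 856) and PCBD1 (744 to 782). SPR and QDPR did not. The gene model used by the submitters' counter is not given in the sources used here, and PCBD2's long transcript (5621 bases) weighs on its place.

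**Figure D3:**
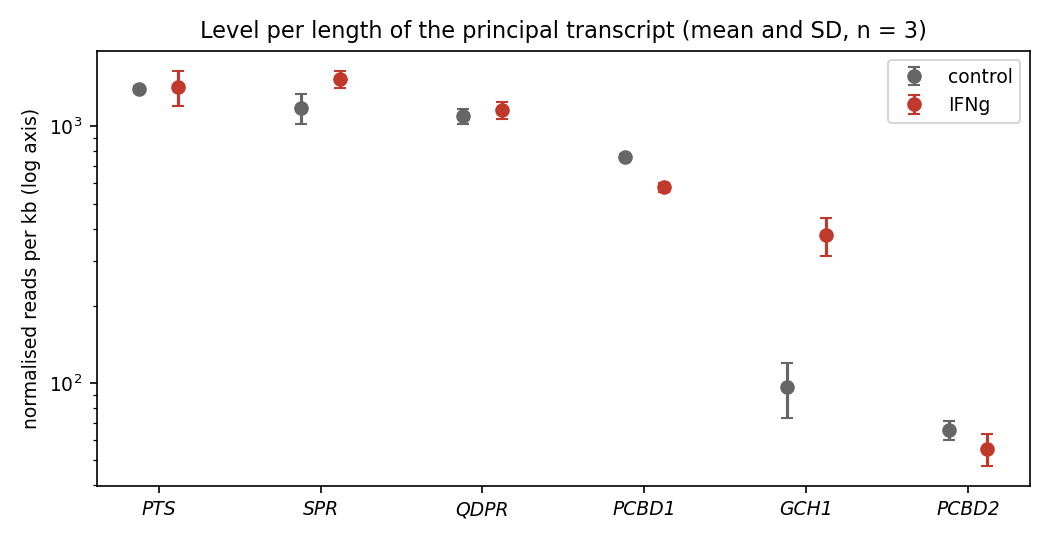
Normalised reads per kb of principal transcript (y axis, log scale) for the 6 genes in control (grey) and IFNg (red), as mean and SD of 3 libraries. GCH1 moves from 96.4 to 376 per kb and remains below PCBD1, at 580.0 in IFNg.

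Of the enzymes that use tetrahydrobiopterin, only the endothelial-type nitric oxide synthase gene NOS3 had more than 49 reads in any library. NOS3 read 1821, 2107 and 2182 in control and 1898, 1866 and 1435 in IFNg, with overlapping groups (log2 difference -0.24 ± 0.15, limma adjusted p = 0.489). Of the 6 users reported here, 4 were kept, and limma, edgeR and DESeq2 called 0 in either direction (1, TPH1, at an unadjusted p under 0.05). Over all kept genes the limma shares were 3.27% higher, 1.05% lower and 15.3% at that unadjusted p. A count of 0 called in so short a list lies near those shares. The tryptophan hydroxylase gene TPH1 had 1, 4 and 14 reads in control and 6, 49 and 47 in IFNg, with overlapping groups (limma adjusted p = 0.306). The inducible synthase gene NOS2 had 12 reads in control 2 and 0 elsewhere. By counting error alone, 0 over the IFNg group allows an expected total of up to 3 reads there. The control SD of 5.79 was above the 1.67 that counting error would give, so that bound may be too low. The alkylglycerol monooxygenase gene AGMO had 0 to 22 reads per library.

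Among reductases of the salvage route or able to stand in for SPR, 2 of 5 reported here rose and 0 fell. Of all kept genes 3.27% were called higher and 1.05% lower. Both that rose were carbonyl reductases. CBR1 read 2292, 2812 and 2970 in control (mean 2691 ± 354) and 3870, 4157 and 3849 in IFNg (mean 3959 ± 172), a log2 difference of 0.56 ± 0.12 (limma adjusted p = 0.0185). CBR3 read 213, 349 and 314 in control and 486, 619 and 819 in IFNg, a log2 difference of 1.13 ± 0.27 (limma adjusted p = 0.0339). Both were higher without overlap, as were 10.7% of all kept genes. Control 1 was the lowest library for each, as it was for GCH1 and SPR. Neither call held in every fit: CBR1 lost it without control 1 (limma adjusted p = 0.0571), IFNg 1 (0.071) or IFNg 2 (0.0989), and CBR3 without control 1 (0.115), IFNg 2 (0.0935) or IFNg 3 (0.128). The aldo-keto reductase gene AKR1B1 differed by -0.02 ± 0.09 (limma adjusted p = 0.951) and AKR1C3 by 0.29 ± 0.26 (0.68).

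GTP, the substrate of GCH1, comes from purine synthesis and salvage. For 15 genes of that list limma and edgeR called 0 in either direction (1 at an unadjusted p under 0.05). All kept genes gave limma shares of 3.27% higher, 1.05% lower and 15.3% at that unadjusted p. The 0 called lies near those shares. The members with the most reads were PAICS, GART, IMPDH2 and GMPS, with log2 differences of 0.11, -0.04, -0.09 and 0.07. The exception at an unadjusted p was the guanylate kinase gene GUK1, from 4823 ± 723 to 6600 ± 485 without overlap (0.46 ± 0.12, limma adjusted p = 0.0556), which DESeq2 called (adjusted p = 0.0134). Without both libraries numbered 3, GUK1, IMPDH1 and PFAS passed as higher (0.53, 0.42 and 0.28, limma adjusted p = 0.00102, 0.0108 and 0.048). GUK1 also passed with the replicate number added to the fit (limma adjusted p = 0.00235).

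The molybdenum cofactor is another pterin made from GTP, and limma, edgeR and DESeq2 called 0 of its 5 genes. That is near the limma shares over all kept genes, 3.27% higher and 1.05% lower (15.3% had an unadjusted p under 0.05). MOCS1, its first enzyme, read 2223, 2219 and 2260.2 in control and 1802, 1683 and 1751 in IFNg without overlap (-0.36 ± 0.11, limma adjusted p = 0.121), the 1 gene of this list with an unadjusted p under 0.05. MOCS2 was at 0.25 ± 0.13, GPHN at 0.08 ± 0.11 and MOCOS at -0.06 ± 0.11.

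Of 8 kept genes of arginine supply and nitric oxide synthase regulation, limma, edgeR and DESeq2 called 0, with 1 (ASS1) at an unadjusted p under 0.05. Both counts lie near the limma shares over all kept genes (3.27% higher, 1.05% lower and 15.3% at that unadjusted p). The argininosuccinate synthase gene ASS1 had 31, 28 and 10 reads in control and 1, 14 and 1 in IFNg (-2.37 ± 1.02, limma adjusted p = 0.287). The arginine transporter genes SLC7A1 and SLC7A2 differed by -0.12 ± 0.10 and 0.19 ± 0.09, and DDAH1, which degrades an inhibitor of the synthases, by 0.08 ± 0.09. The arginase gene ARG2 differed by -0.47 ± 0.28 (limma adjusted p = 0.494), and without both libraries numbered 3 it passed as lower (-0.48, adjusted p = 0.0241). ARG2 also passed as lower with the replicate number added to the fit (limma adjusted p = 0.0211).

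Of 11 reported genes for factors described at the GCH1 promoter or upstream of it, 3 rose and 0 fell: IRF1, the kinase gene JAK2 and USF1. The shares over all kept genes were 3.27% higher and 1.05% lower. For IRF1 the log2 difference was 5.62 ± 0.26, and for JAK2 it was 0.82 ± 0.12. USF1, an E-box binding factor, read 2275, 2698 and 2774 in control and 4469, 4541 and 4389 in IFNg (0.80 ± 0.11, limma adjusted p = 0.000832). Its paralogue USF2 differed by -0.19 ± 0.12 (0.496), the CCAAT-binding subunit gene NFYC by -0.32 ± 0.10 (0.134), the NF-kB subunit genes NFKB1 and RELA by 0.04 and -0.02, and SP1 by 0.09. NFYC passed as lower without both libraries numbered 3 (-0.39, limma adjusted p = 0.0225).

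Among 7 other genes of enzymes that bear on lipid peroxidation, in either direction, limma, edgeR and DESeq2 called 0. At an unadjusted p under 0.05 there were also 0. Shares over all kept genes by limma were 3.27% higher, 1.05% lower and 15.3% at that unadjusted p. The 0 called of 7 lies near those shares. AIFM2, which encodes FSP1, was at 572 ± 102 and 509 ± 79.3 and DHODH at 781 ± 112 and 898 ± 72.9.

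**Figure D4:**
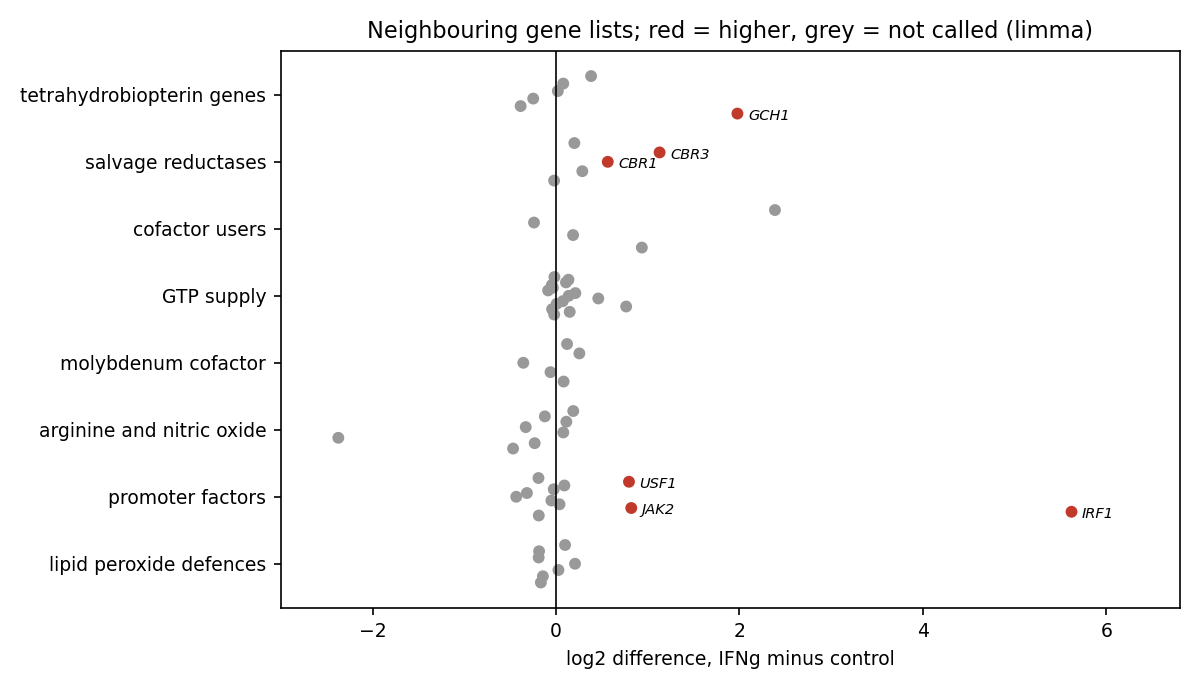
Log2 difference between IFNg and control (x axis) for each reported gene of 8 lists (rows), spread vertically only to separate the points, red where limma called the gene higher and grey where it was not called. GCH1 (1.98) is the only red point among its pathway's genes, and the other red points are CBR1, CBR3, USF1, JAK2 and IRF1.

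The 5 genes whose log2 values were most like those of GCH1 over the 6 libraries, of 12416 with a mean of at least 50, were ZNF618, USF1, MYPN, TXLNB and TMEM62 (Pearson r of 0.993, 0.992, 0.992, 0.992 and 0.991). All 5 passed the test as higher, with log2 differences of 0.67, 0.80, 0.98, 2.41 and 0.58. In each of them, as in GCH1, control 1 was the lowest library. With 2 groups of 3, such an r reflects the step between groups and the order within them. The calls and the place of control 1 follow in large part from picking genes by that r. All are given as a description.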

How the data were processed

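RNA of 3 control and 3 IFNg libraries of HT-1080 cells was analysed. The deposited signal per gene and library is named RPKM by the authors, but dividing each library's values above 0 by 1 step gave whole numbers for 100% of them (tolerance 0.001 reads), so it is reads divided by a size factor (0.863 to 1.20), equal to a recomputed median-of-ratios factor. Tools named in the submitters' processing notes were TopHat2 2.0.13, Cufflinks, Cuffdiff 2.2.1 and FastQC 0.11.3, with builds hg19 and GRCh37; the counter is not given in the sources used here. Genes reaching 0.5 in 3 or more libraries were tested with limma 3.58.1 (R 4.3.3) on log2(value + 1), with a variance trend, group as the only term and 2-sided Benjamini-Hochberg adjustment at 0.05. A pseudocount of 1 understates changes of low genes. edgeR 4.0.16 (quasi-likelihood, TMM) and DESeq2 1.42.0 ran on recovered reads as alternatives, beside other pseudocounts, filters, scalings, a replicate block and left-out libraries. The limma and edgeR fits were also run on simulated data, and no result here rests on that run. Its libraries were independent, without the shared deviation of those numbered 3. Members and gene lists were chosen with earlier results of these data known. Named were all members, list genes that passed, some of those with most reads, and the 5 genes most like GCH1. In the lipid peroxidation list the genes named, AIFM2 and DHODH, were those of lowest level. NOS2, GUK1, ASS1 and other low or uncalled list genes were added after their values were seen. A few list genes are not reported here. In the promoter search the ISRE core was the first choice; the IRF core was added after its result was seen, for a reason of presentation (its letters could be printed), and both are reported.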

Additional observations from a re-analysis of the deposited data

How the results depend on the processing

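GCH1 was called higher under all 17 alternatives, with log2 differences of 1.76 to 2.11 and adjusted p up to 0.0216 (no variance trend). GCH1 relative to the other members stayed between 1.82 and 2.14 under 11 alternatives. No member was called lower under any of the 17. The number called higher was 1 in all except the fit without both libraries numbered 3, where it was 2, GCH1 and SPR. Leaving out 1 library gave 1 higher and 0 lower each time. The PTS difference changed sign with quantile normalization (-0.014) and without both libraries numbered 3 (-0.084), and ran from -0.10 (without IFNg 3) to 0.10 (without IFNg 1) when 1 library was left out. Over all genes, 509 were higher and 163 lower; without a variance trend these were 279 and 41, with DESeq2 717 and 342, and without both libraries numbered 3 1047 and 764. Leaving out 1 library gave 334 to 873 higher and 40 to 493 lower. In the main fit the numbers were not taken to pair samples. Deviations of same-numbered libraries correlated at 0.0687, 0.0359 and 0.156 for numbers 1, 2 and 3. Every library correlated best with its own number except control 2, whose r with IFNg 1 (0.0407) exceeded that with IFNg 2. These values do not settle whether samples were paired. With the replicate block 915 genes were higher and 549 lower, GCH1 kept its call and SPR stayed uncalled (limma adjusted p = 0.0723). In that fit GUK1 passed as higher (0.00235), and ARG2, SPARC and FN1 as lower (0.0211, 0.0255 and 0.0334). CBR1 and CBR3 lost their calls without a variance trend (adjusted p = 0.144 and 0.172), JAK2 did too (0.0525), and CBR3 also with quantile normalization (0.0508); the causes were not tested. GCH1 relative to GCHFR, listed as a comparison, was not run, since GCHFR had no row.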
